A study of Homo sapiens with 2 samples.

Results

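The 647 regions described here are sites of histone acetylation that were called as peaks in control F36P cells and not in F36P cells given the transcription factor ERG, and that lie inside or within 500 kb of a protein-coding gene. They were chosen from the peak lists alone. Of 9161 peaks of the control library, 8940 lay on chromosomes 1 to 22, X and Y, and 8124 of these lay inside or within 500 kb of a protein-coding gene record. A peak of the control library entered the set when none of the 19671 peaks of the ERG library overlapped it by at least 1 bp. The 647 were 7.96% of the 8124 (exact 95% binomial interval 7.38 to 8.57), and the other 7477 overlapped an ERG-library peak. Their deposited q-values were all below 0.05, as were those of every peak of both lists. They are called Vector-only peaks below. Because the peak calls of both libraries chose them, the lack of an ERG-library call is no result, and their values are given as a description. Positions are in hg38, counted from 1.

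F36P is an established human erythroid leukaemia cell line. The ERG library came from F36P cells transduced with MSCV-PIG-AM-ERG, a retroviral construct for ERG overexpression, and the Vector library from F36P cells that received MSCV-PIG alone and are labelled WT. Both cultures were kept in puromycin at 1 µg/ml for 4 days, and both libraries are pull-downs with an antibody to histone H3 acetylated at lysine 27 (H3K27ac). Each group had 1 library, so no difference has a replicate check, no p-value is given, and intervals cover counting error only. Each library stands for a single transduced culture, and the labels do not say what AM stands for. The design text gives the question as how ERG inhibits erythroid differentiation.

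H3K27ac is laid down by the acetyltransferases EP300 and CREBBP, removed by histone deacetylases, and found at active promoters and enhancers. In erythroid cells it marks the promoters and distal enhancers bound by GATA1, TAL1 and their partners. ERG is an ETS-family factor that binds GGAA-containing DNA in blood stem cells, megakaryocytes and endothelium. An H3K27ac peak reports the sum over all cells of a culture, so fewer acetylated cells and less acetylation per cell cannot be told apart.

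Neither list holds read totals. Fragments at the summit and the local background were therefore worked out from each peak's fold and p-value. The lowest background was 2.31 fragments for ERG and 1.60 for Vector, a ratio of 1.44, used below for relative depth. At 1479 strong shared peaks, those with 100 or more ERG-library fragments, the ERG-to-Vector ratio of fragments was higher, 2.39. Picking them by their ERG-library number can raise that ratio. At 7472 overlapping peaks near coding genes the median ratio was 2.14. These are ratios of peak signal, so relative depth is uncertain and 2.39 is no upper limit of it. Of 11 erythroid marker genes, all 11 had an ERG-library peak and 10 a Vector-library peak inside or within 50 kb, ALAS2 being the one without. Within 1 kb of a gene end, 10 erythroid markers had an ERG-library peak and 9 a Vector-library peak. Of 6 myeloid markers, 4 had an ERG-library peak that near to an end, and 1 a Vector-library peak. For 4 lymphoid markers these gene-end counts were 1 and 0, for 3 liver markers 1 and 0, and for 3 neuronal markers 0 and 0. Inside or within 50 kb, ERG library first, the counts were 5 and 4 for myeloid and 3 and 2 for lymphoid markers. They were 1 and 1 for liver and 3 and 2 for neuronal markers.

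Few Vector-only peaks had their summit in a promoter window of 300 bases. RefSeq promoter windows (GRCh38.p14, the same primary assembly as hg38) run from 250 bases before to 50 after a start site. On the chromosomes with windows used here, 7 of 600 Vector-only peaks had their summit in such a window, 1.17% (0.470 to 2.39), against 747 of 7151 overlapping Vector-library peaks, 10.4% (9.75 to 11.2). The window is narrow, and 14.5% of the same 600 lay within 1 kb of a start site of a coding gene. The 6 promoters below are those with the summit of a Vector-only peak of highest deposited −log10 q-value. CHST3, which sulfates chondroitin, has its promoter at chr10:71964145-71964444, plus strand, with the summit at base 54 of the window. LPCAT1, an enzyme of phosphatidylcholine synthesis, has its promoter at chr5:1523911-1524210, minus strand, with the summit at base 103. ACYP1, an acylphosphatase, and ZC2HC1C are divergent neighbours that share 1 peak. Their windows are chr14:75069441-75069740, minus strand, with the summit at base 168, and chr14:75069391-75069690, plus strand, with the summit at base 183, and they have 250 bases in common. SCMH1, a Polycomb-group gene, has its window at chr1:41242257-41242556, minus strand, with the summit at base 23. LOC124903457, a long noncoding RNA, has its window at chr15:32395780-32396079, plus strand, with the summit at base 4. The peaks held 28 fragments at CHST3, 18 at LOC124903457, 13 at LPCAT1, 12 at ACYP1 and ZC2HC1C, and 13 at SCMH1, and the nearest ERG-library peaks lay 17.7 to 262 kb away. The peak covered all 300 bases of the CHST3 window and part of the others. It covered 283 bases at ZC2HC1C, 233 at ACYP1, 181 at SCMH1, 133 at LPCAT1 and 107 at LOC124903457. Sequences run 5′ to 3′ along the gene, and capitals mark the motifs named after them.
CHST3: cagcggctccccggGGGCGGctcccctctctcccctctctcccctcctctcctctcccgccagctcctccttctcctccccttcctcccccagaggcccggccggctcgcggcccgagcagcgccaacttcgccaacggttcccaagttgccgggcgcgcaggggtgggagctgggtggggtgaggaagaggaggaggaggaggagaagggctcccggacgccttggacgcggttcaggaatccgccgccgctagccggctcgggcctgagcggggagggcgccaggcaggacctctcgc
LPCAT1: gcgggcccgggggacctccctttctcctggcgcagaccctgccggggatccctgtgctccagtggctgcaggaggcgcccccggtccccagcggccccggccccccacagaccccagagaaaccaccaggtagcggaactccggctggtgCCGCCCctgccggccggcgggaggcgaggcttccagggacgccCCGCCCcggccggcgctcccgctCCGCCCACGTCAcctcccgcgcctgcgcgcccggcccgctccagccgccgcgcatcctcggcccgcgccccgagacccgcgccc
ACYP1: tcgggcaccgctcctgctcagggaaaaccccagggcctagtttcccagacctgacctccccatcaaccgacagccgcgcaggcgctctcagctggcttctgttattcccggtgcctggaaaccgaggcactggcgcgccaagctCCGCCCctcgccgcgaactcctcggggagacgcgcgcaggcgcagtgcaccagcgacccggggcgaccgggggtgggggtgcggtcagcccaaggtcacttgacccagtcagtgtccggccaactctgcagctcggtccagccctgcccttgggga
ZC2HC1C: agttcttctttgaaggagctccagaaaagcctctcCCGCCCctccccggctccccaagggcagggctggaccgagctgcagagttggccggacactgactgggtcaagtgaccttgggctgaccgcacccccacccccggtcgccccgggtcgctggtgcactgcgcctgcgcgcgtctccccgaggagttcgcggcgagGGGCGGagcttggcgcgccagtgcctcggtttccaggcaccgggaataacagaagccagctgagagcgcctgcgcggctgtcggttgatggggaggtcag
SCMH1: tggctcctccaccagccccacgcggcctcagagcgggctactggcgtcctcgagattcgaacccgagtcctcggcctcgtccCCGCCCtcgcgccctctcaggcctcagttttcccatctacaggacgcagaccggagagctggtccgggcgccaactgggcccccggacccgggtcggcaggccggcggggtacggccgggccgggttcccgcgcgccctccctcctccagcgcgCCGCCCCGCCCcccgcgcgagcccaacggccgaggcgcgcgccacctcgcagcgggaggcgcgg
LOC124903457: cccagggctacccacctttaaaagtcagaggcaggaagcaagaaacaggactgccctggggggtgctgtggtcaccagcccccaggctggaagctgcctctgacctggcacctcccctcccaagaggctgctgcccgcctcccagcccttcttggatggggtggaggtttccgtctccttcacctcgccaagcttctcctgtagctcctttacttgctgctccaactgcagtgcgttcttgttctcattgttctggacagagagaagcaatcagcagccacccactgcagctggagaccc

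Promoters of 3 further genes were added after their values were seen, because Vector-only peaks of high −log10 q-value lay at these genes and no ERG-library peak lay at their ends. IQCB1, which encodes a ciliary protein, shares a divergent promoter region with EAF2, and its window is chr3:121835011-121835310, minus strand. MYBL2, which encodes the cell cycle transcription factor B-Myb, has its window at chr20:43666864-43667163, plus strand. BTG2, an antiproliferative gene induced by p53, has its window at chr1:203305269-203305568, plus strand. The Vector-only peak covered 74 bases of the IQCB1 window, 74 of the MYBL2 window and 0 of the BTG2 window, past which it began.
IQCB1: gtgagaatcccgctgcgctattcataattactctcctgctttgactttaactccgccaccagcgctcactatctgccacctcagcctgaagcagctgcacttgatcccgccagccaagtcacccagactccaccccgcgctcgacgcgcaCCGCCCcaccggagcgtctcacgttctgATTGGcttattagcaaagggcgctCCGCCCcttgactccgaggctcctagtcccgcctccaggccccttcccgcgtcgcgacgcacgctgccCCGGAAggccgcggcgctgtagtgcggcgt
MYBL2: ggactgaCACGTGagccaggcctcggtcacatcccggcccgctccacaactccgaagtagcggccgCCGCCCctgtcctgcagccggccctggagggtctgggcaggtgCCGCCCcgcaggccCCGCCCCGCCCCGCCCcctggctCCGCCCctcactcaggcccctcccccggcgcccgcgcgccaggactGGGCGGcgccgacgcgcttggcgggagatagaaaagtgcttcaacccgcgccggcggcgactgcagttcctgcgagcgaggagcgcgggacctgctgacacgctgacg
BTG2: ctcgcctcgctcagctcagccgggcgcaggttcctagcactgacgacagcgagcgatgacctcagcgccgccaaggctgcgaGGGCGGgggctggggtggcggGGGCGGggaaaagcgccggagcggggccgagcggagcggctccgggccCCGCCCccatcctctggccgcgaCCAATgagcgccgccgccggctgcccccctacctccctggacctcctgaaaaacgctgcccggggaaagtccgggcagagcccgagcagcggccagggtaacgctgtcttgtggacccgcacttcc

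Of 6 short motifs searched on both strands, the GC box was the one found in most of these 9 windows. GGGCGG was found in 8 of the 9, and in 44.95% of all 35116 promoter windows. CCAAT was found in 2 (IQCB1 and BTG2), and in 34.6% of all windows. The ETS core CCGGAA was found in 1 (IQCB1), and in 17.2% of all. The E-box CACGTG was found in 1 (MYBL2), and in 7.26% of all, and the cyclic AMP response core TGACGT in 1 (LPCAT1), and in 7.98% of all. The GATA motif AGATAA was in 0 of the 9 and in 10.3% of all windows. Neighbouring GC boxes of MYBL2 and SCMH1 share 1 base. The windows of ACYP1 and ZC2HC1C share 250 bases, with 1 GC box in them that counts for both. The 9 windows ran from 59.7% (LOC124903457) to 80% (LPCAT1) in G and C. Of all 35116 windows 22198 belong to protein-coding genes, while of the 9 only LOC124903457 is noncoding, so the sets are unlike. Promoters at overlapping peaks were not searched apart, so no motif is read as a trait of Vector-only peaks. A match describes the letters of a window and not a bound site.

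Vector-only peaks were narrow and weak within their list. Their median width was 335 bp (95% interval 330 to 341), against 535 bp (527 to 542) for Vector-library peaks that overlapped an ERG-library peak. Of the 647, 478 had 400 bp or less, and 37 were wider than 600 bp. The summit held a median of 16 fragments (15 to 16), with a range of 8 to 61, against 28 (28 to 29) in overlapping Vector-library peaks, with a range of 8 to 433. The median deposited −log10 q-value was 3.31 (3.20 to 3.46) against 8.39 (8.23 to 8.60), and the median deposited fold 3.60 (3.55 to 3.66) against 4.63 (4.59 to 4.67). Their local background was also lower, with a median of 3.53 against 5.19 fragments.

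Whether a Vector-library peak had an ERG-library counterpart went with its number of fragments. Of the 256 peaks near coding genes with 8 to 11 fragments, 145 were Vector-only, 56.6% (50.3 to 62.8). The share was 24.5% (21.3 to 27.8) at 12 to 15 fragments, 10.7% (8.92 to 12.7) at 16 to 19, 5.57% (4.73 to 6.52) at 20 to 29 and 2.57% (1.98 to 3.27) at 30 to 49. At 50 to 99 fragments 8 of 925 peaks were Vector-only, 0.865% (0.374 to 1.697). None of the 79 peaks with 100 or more fragments was, which allows a share of up to 4.56%. By local background the share was 31.9% (25.5 to 38.7) below 1.7 fragments, 18.1% (15.9 to 20.4) from 1.7 to 3, 5.98% (5.09 to 6.97) from 3 to 5, 4.68% (3.98 to 5.47) from 5 to 10 and 6.66% (5.18 to 8.41) above that. The share was thus highest at the lowest backgrounds and did not fall further above 5 fragments.

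**Figure D1:**
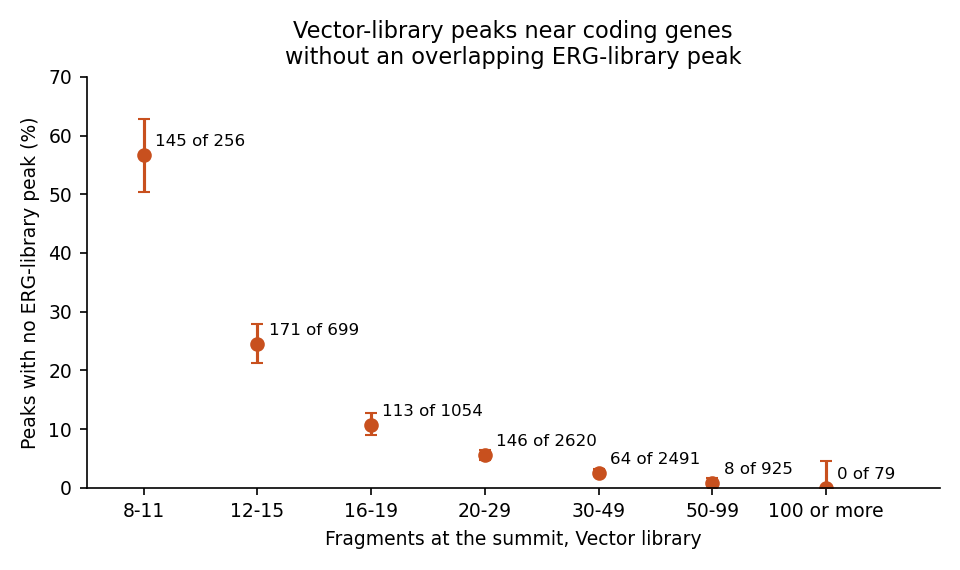
Share of Vector-library peaks near coding genes that no ERG-library peak overlapped (%), by the number of fragments at the summit. Points are shares, bars exact 95% binomial intervals, and labels give the counts. The share is 56.6% at 8 to 11 fragments and 0.865% at 50 to 99.

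Multiplied by the lower depth ratio of 1.44, the fragment numbers of the 647 peaks ran from 11.6 to 88.1 with a median of 23.1. The lowest fragment number of any ERG-library peak was 9, and a Vector-only peak of 8 fragments scales to 11.6, so no scaled value could lie under it and nothing is read from that. Measured against 15 fragments, the median of the ERG-library peaks with the lowest 5% of −log10 q-values, 14.2% lay under it. Whether the 647 sites could have been called in the ERG library was not tested by this scaling.

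A site may still hold fragments in the ERG library without being called. With a background of 1.44 times that of the Vector library, between 8 and 61 fragments, median 14, could lie at the 647 sites and stay below the lowest called −log10 p-value. This maximum was a median of 0.889 times the number in the Vector library, with 5th and 95th percentiles of 0.667 and 1.09. At 7472 overlapping peaks with recovered numbers, ERG-library fragments were a median of 2.14 times those of the Vector library, with percentiles of 1.25 and 3.45. Overlapping peaks are by definition those called in the ERG library, so their ratios do not bear on the sites that were not. The actual background of the ERG library at the 647 sites was not measured, and a higher one, such as a ratio of 2.39 would give, raises the maximum.

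Distances to the nearest ERG-library peak were spread widely, from 4 bp to more than 500 kb. Of the 647 peaks, 94 had an ERG-library peak within 500 bp, 14.5% (11.9 to 17.5), 285 within 10 kb, 44.0% (40.2 to 48.0), and 500 within 50 kb, 77.3% (73.9 to 80.5). The share within 10 kb was 20.2% when the ERG list was limited to as many of its strongest peaks as the Vector list has, and 23.7% when each list was limited to its upper 50% by score. Below 1 kb the most frequent distances were 301 to 400 bp, with 27 peaks, and 401 to 500 bp, with 25, against 10 at 1 to 100 bp and 14 at 801 to 1000 bp, although the last step is wider. No ERG-library peak lay within 50 kb of 147, and 10 were farther than 500 kb from one. At the edge of the rule, a peak in CDC34 lay 4 bp and one in MYC 11 bp from an ERG-library peak, while the smallest overlap that removed a peak from the set was 37 bp. At its other edge, the last peak inside the 500 kb limit lay 496 kb from OR11H1, and the first beyond it 520 kb from DCUN1D4.

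The 94 peaks beside an ERG-library peak differed in place from the rest. Their ERG-library neighbours had a median width of 618 bp and 43 fragments at the summit, and 32 of these 94 neighbours, 34.0%, overlapped another Vector-library peak. The 94 lay at gene ends in 37.2% (27.5 to 47.8), against 14.5% (11.6 to 17.7) of the 553 peaks farther away. The split was made by closeness to ERG-library peaks. These themselves lay at the ends of 6047 genes together with Vector-library peaks and of 3131 without. The gene-end difference is thus tied to the split and was not tested. They held a median of 21 fragments over a background of 5.60, against 15 over 3.17 for the 553. The 147 peaks with no ERG-library peak within 50 kb held 12 fragments over 2.15, and 137 of them had no other Vector-library peak within 50 kb.

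**Figure D2:**
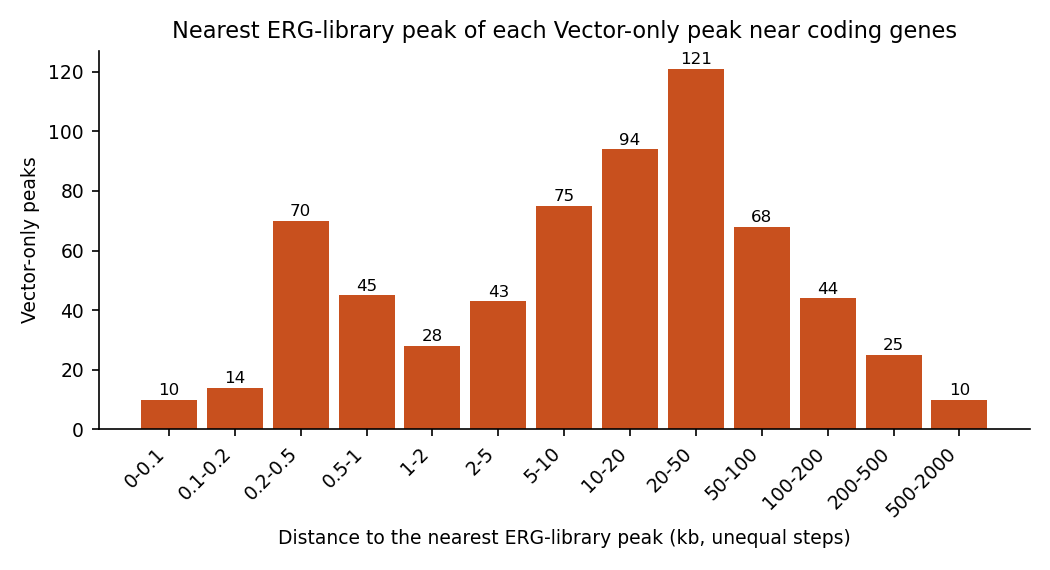
Number of Vector-only peaks near coding genes by distance to the nearest ERG-library peak (kb, in unequal steps). Of the 647, 94 lie within 0.5 kb, and 147 lie beyond 50 kb.

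As chosen here, Vector-only peaks lay inside genes more than at their ends, an order that depended on how the lists were limited. A peak counts as at a gene end when it lies within 1 kb of where a gene record begins or stops. Of the 647, 115 lay at gene ends, 17.8% (14.9 to 20.9), against 5300 of 7477 overlapping Vector-library peaks, 70.9% (69.8 to 71.9). A further 328, 50.7% (46.8 to 54.6), lay elsewhere inside a protein-coding gene, against 16.7% (15.9 to 17.6). The remaining 204, 31.5% (27.96 to 35.3), lay between such genes, against 12.4% (11.7 to 13.2). With the ERG list limited to the number of Vector-library peaks, 39.5% of 1917 Vector-only peaks lay at gene ends, a larger set that holds the 647. With both lists limited to the better-scoring 50%, it was 53.2% of 139, which turns the order of gene ends and gene interiors. Only 21 of these 139 are among the 647, so both settings describe largely other peaks. Within the 647, the difference from overlapping peaks at gene ends held at like fragment numbers up to 49. The share was 14.5% (9.19 to 21.3) against 69.4% (59.9 to 77.8) at 8 to 11 fragments, 18.7% against 68.9% at 12 to 15, 17.7% against 67.9% at 16 to 19, 22.6% (16.1 to 30.3) against 69.1% (67.3 to 70.9) at 20 to 29 and 12.5% against 73.3% at 30 to 49. Peaks of a single library are not replicates, so this difference was not tested beyond its counting intervals. No record of any kind covered 147 Vector-only peaks, 22.7% (19.5 to 26.1), against 9.98% (9.31 to 10.7) of the overlapping ones.

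**Figure D3:**
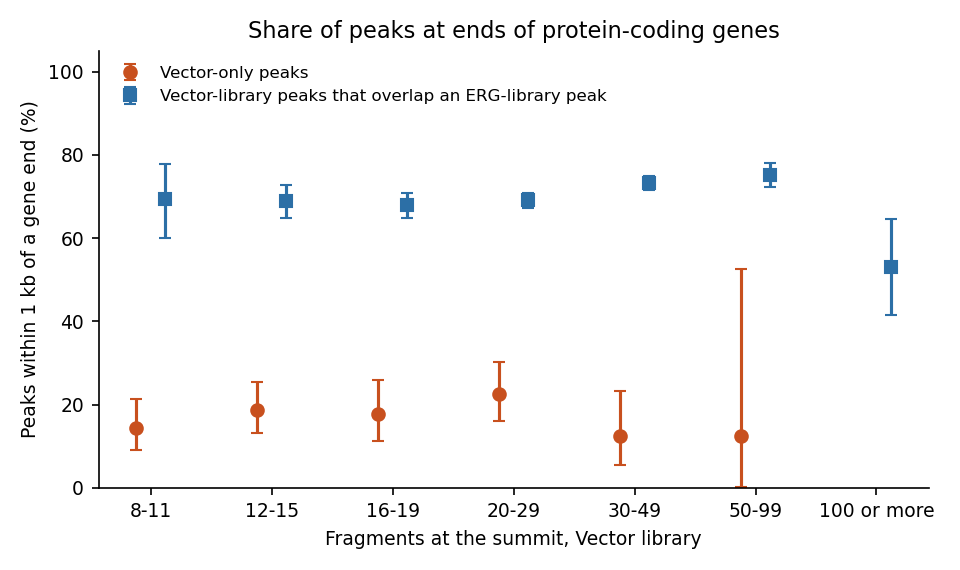
Share of peaks at gene ends (%), by fragments at the summit, for Vector-only peaks (circles) and Vector-library peaks that overlap an ERG-library peak (squares), with exact 95% binomial intervals. Vector-only peaks lie between 12.5% and 22.6%, and overlapping peaks between 53.2% and 75.2%.

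At the ends of genes, Vector-only peaks left 70 genes with a peak in the Vector library alone. The 115 gene-end peaks lay at 126 genes, and the other 56 genes had a separate end peak in the ERG library. Over all 20033 protein-coding genes, an end was marked by ERG-library peaks and no Vector-library peak at 3131 (15.6%), and by Vector-library peaks and no ERG-library peak at 71 (0.354%). The ERG list is the longer one, with 19671 peaks against 9161, so nothing is read from these counts. The 71 became 732 when the ERG list kept only as many of its strongest peaks as the Vector list has. With the upper 50% of each list by score it was 81. Of the 10 genes of highest −log10 q-value, 9 are described next, of which EAF2 and IQCB1 share a peak.

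EAF2, a partner of the ELL elongation factors, and IQCB1 lie head to head on chromosome 3. The peak at 121834683 to 121835084 overlapped the end of IQCB1 (121769761 to 121835060) and lay 125 bp from EAF2 (121835209 to 121886526). It had 25 fragments over a background of 3.08, a deposited fold of 6.37 and a −log10 q-value of 11.5, and the nearest ERG-library peak lay 34.5 kb away. IQCB1 held a further pair of Vector-only peaks, at 121792394 to 121792698 with 12 fragments and at 121825026 to 121825393 with 11. Within 50 kb EAF2 had 1 ERG-library peak against 3 Vector-library peaks, and IQCB1 had 2 against 4.

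MYBL2 on chromosome 20 (43667114 to 43716482) had a peak at its lower-coordinate end, 43667090 to 43667430, with 23 fragments and a −log10 q-value of 8.28 (deposited). The gene is on the plus strand, so this end is its start, and the nearest ERG-library peak lay 76.0 kb away. BTG2 on chromosome 1 (203305519 to 203309602) had a peak at 203305608 to 203306071, 89 bp inside its start, with 23 fragments and 7.72. Its nearest ERG-library peak lay 21.1 kb away. CHST3 on chromosome 10 (71964395 to 72013558) had 28 fragments in the peak at 71964059 to 71964561, with the nearest ERG-library peak at 103 kb.

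The other 4 genes had 16 to 26 fragments. TRIM67, a RING-type ubiquitin ligase gene, had 26 in a peak 972 bp outside the gene on chromosome 1, with no ERG-library peak within 79.7 kb. MAN2B2, an α-mannosidase gene, had 17 in a peak 12 bp from its lower-coordinate end on chromosome 4. PDF, the mitochondrial peptide deformylase gene, had 19, and SLC15A3, a lysosomal peptide and histidine transporter gene, had 16. Their ERG-library neighbours lay 8.48 and 6.33 kb away, the closest for these 9 genes.

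**Figure D4:**
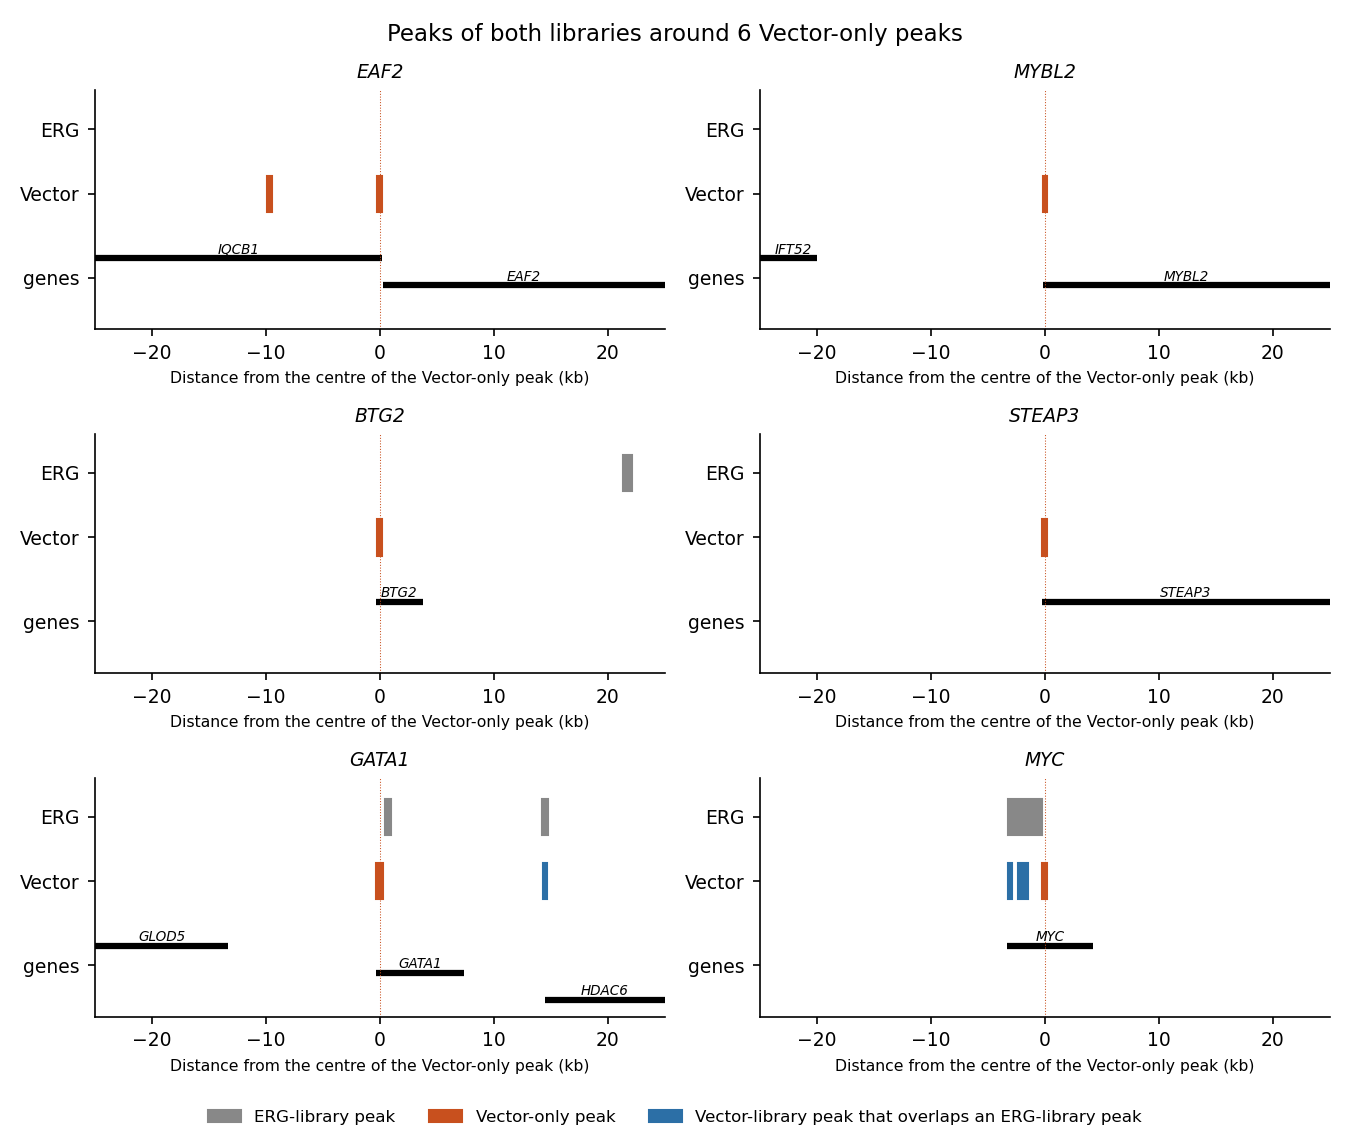
Peaks of the ERG library (upper row of each panel) and the Vector library (middle row) and protein-coding genes (lower row) within 25 kb of the centre of 6 Vector-only peaks, by distance in kb. At EAF2, MYBL2 and STEAP3 the ERG library has 0 peaks in the window, at BTG2 it has 1, at 21.1 kb, and at GATA1 and MYC an ERG-library peak ends or begins 160 and 11 bp from the Vector-only peak.

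At erythroid transcription factor genes, Vector-only peaks lay mostly inside genes that the ERG library also marked. Of 26 erythroid regulators, 26 had an ERG-library peak and 23 a Vector-library peak inside or within 50 kb, and 6 had a Vector-only peak. That is 23.1% (8.97 to 43.6) of these genes, against 6.05% of all 20033 genes, of which 11710 had any Vector-library peak that near. Near these 26 genes the Vector library had 62 peaks. Of these 6 were Vector-only, 9.68% (3.63 to 19.9), close to the 7.96% of all peaks within 500 kb of a coding gene. In GATA1, the master factor of erythroid genes, the peak at 48786613 to 48787215 on chromosome X had 29 fragments. An ERG-library peak with 44 fragments began 160 bp from it, at 48787375, inside the gene. KLF3, a Krüppel-like repressor gene, had a peak inside it with 15 fragments, 23.9 kb from the nearest ERG-library peak. ZBTB7A, a repressor of fetal globin, had one with 25 fragments at 502 bp, and ZFPM1, which encodes the GATA1 partner FOG1, one with 24 fragments at 8.10 kb. NFE2 and SOX6 had the others, with 38 fragments at 4.96 kb and 12 fragments at 133 kb.

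Genes of the red cell membrane and blood groups carried 8 Vector-only peaks at 7 of 32 genes, 21.9% (9.28 to 39.97) of the genes, against 6.05% of all. A Vector-library peak of any kind lay that near to 26 of the 32. The 8 were 14.8% (6.62 to 27.1) of the 54 Vector-library peaks near them, an interval that includes 7.96%. PIEZO1, a mechanosensitive channel gene mutated in hereditary xerocytosis, had a peak with 41 fragments, 161 bp from an ERG-library peak with 111 and 910 bp from its end. A second Vector-only peak inside PIEZO1, at 88773282 to 88773730 on chromosome 16, had 42 fragments, 10.7 kb from the nearest ERG-library peak. CD36, a fatty acid receptor gene, had one inside it with 13 fragments, while at its ends only the ERG library had a peak. One with 14 fragments lay 10.2 kb from GYPB, a glycophorin gene so like its neighbours that reads there are uncertain. The peak assigned to RHD, the Rh D antigen gene, had 39 fragments and overlapped RSRP1 as well, 872 bp from an ERG-library peak. SMIM1, which carries the Vel blood group antigen and is not on the list, had a peak at each of 3772773 to 3773183 and 3774093 to 3774638 on chromosome 1, with 52 and 51 fragments. An ERG-library peak with 56 fragments lay 528 bp past the second, within the gene (3772749 to 3775956), whose end peaks counted in both libraries.

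Iron and heme genes gave few cases. Of 22 iron genes, 4 had a Vector-only peak, and 4 of the 38 Vector-library peaks near these genes were Vector-only, 10.5% (2.94 to 24.8). STEAP3, which reduces iron in the endosome, had 14 fragments in a peak at 119223892 to 119224295 on chromosome 2, 58 bp inside its end. With 0 ERG-library and 1 Vector-library peak within 50 kb, it was the single gene of the 20 lists whose ends had a peak only in the Vector library. Inside PCBP2, an iron chaperone gene, a peak had 18 fragments, inside NCOA4, the receptor for ferritin breakdown, 21, and beside the transferrin receptor gene TFR2 28, at 268 bp from an ERG-library peak. Of 21 heme genes, CPOX and ALAD, both enzymes of heme synthesis, had one, with 20 and 23 fragments, which is 4.35% (0.531 to 14.8) of 46 peaks. The nearest ERG-library peaks lay 300 bp from the CPOX peak, with 36 fragments, and 12.7 kb from the ALAD peak, with 86. The 10 globin genes had 0 of 4. In the signalling list 2 of 40 peaks were Vector-only, 5% (0.611 to 16.9), at EPOR with 45 fragments and at TFR2. An ERG-library peak with 95 fragments lay 726 bp from the EPOR peak. The ends of EPOR, TFR2 and CPOX had peaks in both libraries.

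Among genes of other blood cells and of chromatin, the interval of the Vector-only share included 7.96% for every list. The share was 3 of 31 peaks near stem and progenitor genes, 9.68% (2.04 to 25.8), at ETV6, MYC and MECOM. The MYC peak at 127738511 to 127738935 on chromosome 8 had 32 fragments and began 11 bp past an ERG-library peak with 110. Near the 27 ETS genes it was 2 of 38, 5.26% (0.644 to 17.7), at ETV6 and ELF2, with 23 and 17 fragments. Near the 26 endothelial genes it was 3 of 24, 12.5% (2.66 to 32.4). CALCRL, the receptor gene for adrenomedullin and CGRP, had 2 Vector-only peaks and 0 ERG-library peaks within 50 kb. ENG, a TGF-β co-receptor gene, had 1, with 9 ERG-library peaks against 6 Vector-library peaks around it. For ENG the nearest gene to the peak was SH2D3C, and for the stronger CALCRL peak it was TFPI. Myeloid genes had 4 of 33, near FCGR2A, CYBB and CD68, megakaryocyte genes 1 of 28, near ITGB3, mast cell genes 1 of 4, near CPA3, and lymphoid genes 1 of 19, near CD7. These last peaks lay 14.7 to 33.7 kb from the listed gene, inside MYL4 and CPB1 and beside CSNK1D.

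Histone deacetylase genes had 1 of 33, 3.03% (0.0767 to 15.8), which is the GATA1 peak and lies 14.2 kb from HDAC6. Corepressor and coactivator genes had 5 of 58, 8.62% (2.86 to 18.98). TBL1XR1, a WD-repeat corepressor gene, had 2 of these, the stronger with 14 fragments, and KAT2B and CHD3 had 16 and 21. Cell cycle genes had 3 of 42, at CDK1, MYC and CDK6, and apoptosis genes 2 of 48, inside BAK1 and 40.7 kb from BAX. Of the control lists, ribosomal protein genes had 2 of 89, 2.25% (0.273 to 7.88), liver genes 0 of 6 and neuronal genes 1 of 10, 24.6 kb from SYP. The interval held 7.96% for 19 of the 20 lists, and lay below it for the ribosomal protein genes. The 7.96% counts peaks within 500 kb of a coding gene, while the lists count peaks within 50 kb. Within 100 kb of a coding gene the share of all Vector-library peaks was 7.41%, which the ribosomal interval includes. Nothing is therefore read from the ribosomal list. None of the 43 peaks near listed genes was still Vector-only when each list was limited to its upper 50% by score (0 of 43), which leaves out weak peaks by construction.

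**Figure D5:**
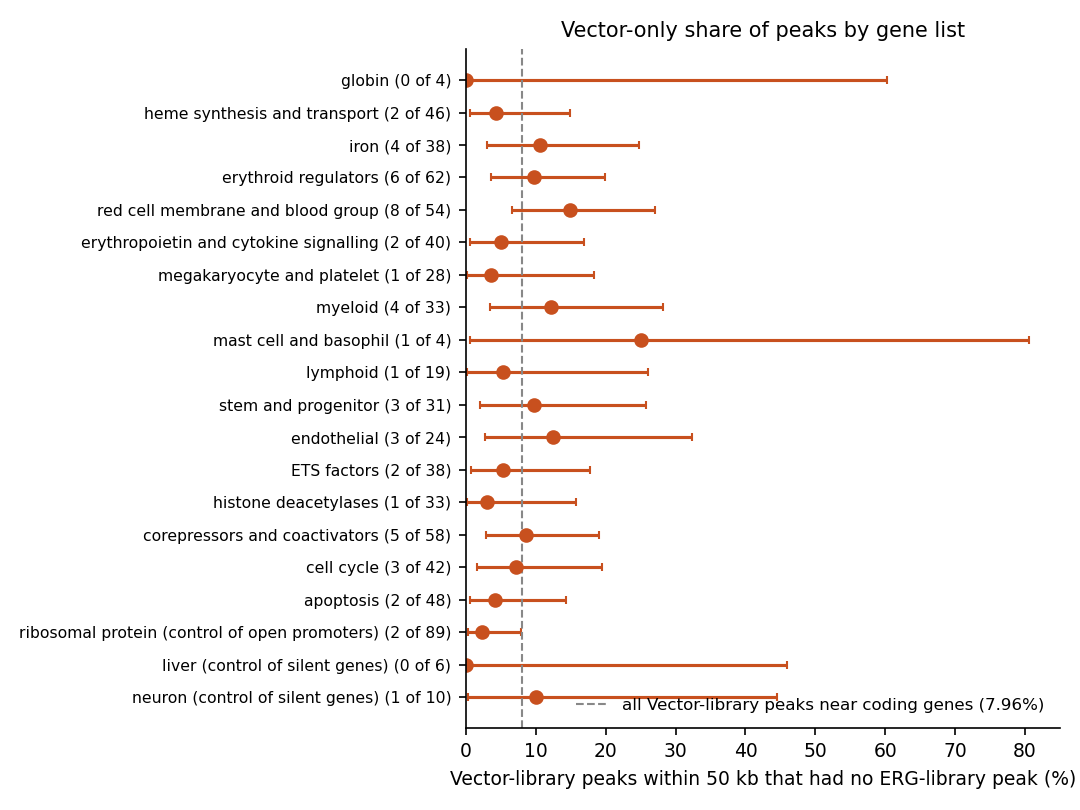
Share of the Vector-library peaks inside or within 50 kb of the genes of each list that were Vector-only (%), with exact 95% binomial intervals and counts. The dashed line is the 7.96% of all Vector-library peaks within 500 kb of a coding gene, a wider window than that of the lists. It lies inside the interval of 19 of the 20 lists.

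The 10 Vector-only peaks of highest −log10 q-value lay mainly between genes, 8 of them, with the other 2 at gene ends, one of them the IQCB1 peak. The first, on chromosome 22 at 15032309 to 15032604, had 26 fragments over 1.60, a deposited fold of 10.4 and a −log10 q-value of 19.1. It lay 496 kb from OR11H1, an olfactory receptor gene. The second, 3.99 kb from the inflammasome gene CARD8 on chromosome 19, at 48259936 to 48260239, had 41 fragments over 5.78 and a −log10 q-value of 17.6, with an ERG-library peak of 91 fragments at 3.92 kb. The third, at 190089768 to 190090338 on chromosome 4, had 38 fragments and lay 62.5 kb from FRG2, a gene of the subtelomeric repeat region. The next lay 201 kb from PLS3 with 55 fragments and 150 kb from DCUN1D4 with 20. The others lay 185 kb from LOC124907867 with 49, 78.0 kb from MED13 with 37 and 75.4 kb from LOC101929601 with 49. ERG-library peaks lay within 10 kb of 5 of the 10. Records of the type pseudogene covered 16 of the 647, 2.47% (1.42 to 3.98), against 0.883% (0.683 to 1.12) of overlapping peaks. Those of the type transcribed pseudogene also covered 16, against 1.46% (1.20 to 1.76), with intervals that overlap. Reads from repeated sequence are uncertain, and no source used here states how they were placed.

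Most genes near a Vector-only peak had a single one. Within 50 kb, 1133 genes had 1, 73 had 2 and 5 had 3 or more. LOC101929627 and LOC101929601, neighbours on chromosome 8 from 85744489 to 85746516 and from 85735314 to 85737397, had 4 and 3. They lay among 12 ERG-library against 11 Vector-library peaks and 11 against 10. ZNF875, a zinc finger gene on chromosome 19, had 3, among 7 against 6, and EAF2 and IQCB1 had the 3 given above. The widest was 1127 bp with 43 fragments, 33.4 kb from FCGR2A on chromosome 1 (161470926 to 161472052) and 453 bp from an ERG-library peak with 153. The next 4 in width, 990 to 1032 bp, lay 10.9 kb from INPP5D, a lipid phosphatase gene of blood cells, and inside TPGS1, RCL1 and FZD5.

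All 24 chromosomes held a Vector-only peak. The share of Vector-library peaks near coding genes that were Vector-only was 14.7% on chromosome 13 (9.75 to 20.9, 25 of 170), 12.6% on chromosome 8 (9.41 to 16.4, 47 of 373) and 11.8% on chromosome 4 (8.61 to 15.6, 42 of 357). The intervals of these 3 chromosomes alone lie above 7.96%. The lowest share was 5.19% on chromosome X (2.62 to 9.09, 11 of 212), and chromosome Y had 1 of 14. Chromosomes 13 and 4 had a low median local background at their Vector-only peaks, 2.51 and 3.08 fragments, against 3.53 over all 647, while chromosome 8 had 4.10. Chromosomes 5 and 7 had as low a background, 2.48 and 2.30, with shares of 6.72% and 5.86%. The part of background in these shares was not tested.

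Around the 647 peaks the ERG library often covered more sequence than the Vector library. Within 50 kb, peaks of the ERG library covered the greater length at 411 sites, and those of the Vector library at 236, 36.5%. At overlapping Vector-library peaks the Vector library covered more at 185 of 7477, 2.47%. The rule favours the Vector library in the first count, since each site holds its peak and no ERG-library peak at that place. The length of the ERG list, 19671 peaks against 9161, favours the ERG library in both counts. Every overlapping peak also has an ERG-library peak beside it by definition, so nothing is read from these counts. Vector-only peaks were narrower than the 10220 ERG-only peaks near coding genes, with medians of 335 bp against 508 bp (500 to 515), and held fewer fragments, 16 against 29, in the library of lower background. The 148 Vector-only peaks farther than 500 kb from coding genes had a median of 12 fragments over 1.60, a deposited fold of 4.62 and a −log10 q-value of 4.62.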

How the data were processed

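H3K27ac was measured by chromatin immunoprecipitation in 1 ERG and 1 Vector library of F36P cells. Per the labels' protocols, chromatin was fixed with 1% formaldehyde and cut with micrococcal nuclease, and 10 µg went into each pull-down. Per the submitters' processing notes, Bowtie2, MACS2, deepTools and hg38 were used, with no versions or settings. No source used here states whether an input library was used. Each library has 1 deposited peak list, with 10 columns per peak. The deposited score repeats the −log10 q-value as a whole number, 10 times as large and rounded down. The deposited fold is a ratio of the summit to the local background, and the deposited −log10 values give the p-value and the q-value of the summit. All were used to describe or filter peaks within their own list. Fragments were recomputed from fold and −log10 p-value, as (fragments plus 1) over (background plus 1) and a Poisson tail. They came out whole, with a relative error below 0.0001, for 99.9% of ERG-library and 99.9% of Vector-library peaks and all 647 members. The calculation recovered 100% of 3000 simulated peaks of each library, made with the same formulas. Genes are 20033 protein-coding records of RefSeq GRCh38.p14, without exons, so no peak is placed in exons, introns or UTRs. Promoter windows on chromosome 8 were not used here. Adjacent bases count as 1 bp apart. Intervals are exact (Clopper-Pearson) 95% for shares and from order statistics for medians. They cover counting error only, and PCR copies are not independent molecules.

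The members, the 20 gene lists (500 names, 481 distinct, all matched) and the tests were chosen with earlier results of these data known. Genes were named by rule: the 10 peaks and the 10 genes marked at an end by Vector-only peaks of highest −log10 q-value with no ERG-library peak there, up to 4 members per list, the 5 genes with most members, the 5 widest members and the 6 promoters with a summit. Others (SMIM1, NFE2, SOX6, the second PIEZO1 peak, and the promoters of IQCB1, MYBL2 and BTG2) were chosen after their values were seen. Some genes that the rule names are not reported here. Python 3.11.15, numpy, pandas, scipy 1.17.1 and matplotlib were used.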

Additional observations from a re-analysis of the deposited data

How the results depend on the processing

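The number of Vector-only peaks depended most on how the lists were limited. Keeping of the ERG list as many of its strongest peaks as the Vector list has gave, by construction with fewer ERG-library peaks, 1917 peaks (23.6% of 8124), 39.5% at gene ends, 20.2% with an ERG-library peak within 10 kb, medians of 371 bp and 19 fragments, and 732 genes marked at an end by the Vector library and not by the ERG library. The upper 50% of each list by score gave 139 peaks (3.43%), of which 21 are among the 647, with 53.2% at gene ends, more than can lie elsewhere inside genes, 23.7% within 10 kb, and medians of 444 bp and 28 fragments. With at least 50% of the peak covered, 9.32% were Vector-only, 52.2% within 10 kb, with medians of 344 bp and 17 fragments. With a peak within 500 bp taken as shared, the values were 6.81%, 14.5% at gene ends and 34.5% within 10 kb. With a q-value of 0.01 or less they were 7.36% and a median of 17 fragments. The share at gene ends was 23.3% with a window of 2.5 kb and 14.5% with start sites, for 600 peaks without chromosome 8. The share with an ERG-library neighbour was 25.8% within 2 kb and 77.3% within 50 kb. The share of scaled fragment numbers under the ERG-library floor was 14.2% with the higher floor and 0 with the ratio of 2.39 at strong shared peaks. In every one of these settings most Vector-library peaks near coding genes overlapped an ERG-library peak. Of the 10 genes named at their ends, 5 stayed in the upper 50% setting and 10 in each other one. Of the 10 strongest peaks, 6 lay within 100 kb of a coding gene, and of the 43 near listed genes 0 stayed in the upper 50% setting and 36 with the 500 bp gap. Of all values recomputed, 42 kept within their limits and 30 moved.

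With 1 library per group, leaving out a replicate was not possible. No paired analysis was possible because each group has a single library, so the groups share fewer than 2 replicate numbers. Vector-only peaks of 8 to 11 fragments rest on the least depth, and fragment numbers are counts of the summit only.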

Other observations

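Noncoding records were met by few Vector-only peaks. Long noncoding RNA records covered 89 of the 647, 13.8% (11.2 to 16.7), against 16.5% (15.7 to 17.4) of the Vector-library peaks that overlapped an ERG-library peak. MicroRNA records were touched by 2, MIR4435-1 and MIR6722, transfer RNA records by 1, TRL-CAG1-5, and small nucleolar and small nuclear RNA records by 0. These names were chosen after their values were seen.

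Alternate, unlocalised and unplaced sequences of the genome build held 221 Vector-library peaks, of which 27 had no overlapping ERG-library peak, 12.2%. The rule leaves them out. They were spread thinly, with 3 on chr22_KI270733v1_random, 2 each on chr15_KI270905v1_alt and chrUn_KI270744v1, and 1 on each of the others.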
